A study of Mus musculus with 12 samples.

Results

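Keratin genes were followed through the reprogramming of mouse embryonic fibroblasts into induced pluripotent stem cells. The members are the rows of the count tables whose symbol is Krt followed by digits alone, which are 48 of 23420 genes. They divide into 26 type I and 22 type II genes. RNA was sequenced from 12 libraries of mixed C57BL/6 x 129 mouse cells, in 4 groups of 3. MEF are the fibroblasts before reprogramming, Stage1 cells were taken on day 6, Stage2 cells after 4 further days, and iPSC are established lines. Per the series text, all groups but MEF had been sorted for green fluorescence driven by Oct4, a gene of pluripotent cells (Oct4-GFP). Every group shares the strain background, and how the reprogramming factors were delivered is not given in the sources used here. The labels do not say whether the 3 libraries of a group came from separate animals or cultures, so p-values rest on the spread among these libraries only, which may be technical.

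The labels disagree with each other. Groups were taken from the titles, which carry the replicate numbers, but the characteristic called Stage gives a different group for 12 of 12 libraries, as though shifted along. Marker genes were read against both namings. A list of 12 pluripotency genes summed to 4.58 to 6.15 CPM (counts per 1000000 gene counts) in the libraries titled MEF, 3726 to 3851 CPM in Stage1, 6191 to 6638 CPM in Stage2 and 6802 to 7934 CPM in iPSC. A list of 14 fibroblast genes summed to 28400 to 35610, 349 to 650, 1219 to 1512 and 596 to 648 CPM in the same order. The characteristic names the libraries titled MEF as iPSC and those titled Stage1 as MEF. Under it, iPSC would be lowest for the pluripotency list and highest for the fibroblast list. For the libraries titled MEF the marker sums thus go with the title. The naming of Stage1, Stage2 and iPSC among themselves is not settled by these sums, as these groups all had high pluripotency and low fibroblast sums. The titles are used throughout, and the counts of calls under the other naming are given in the closing section.

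Keratins are the intermediate filament proteins of epithelial cells. A filament is built from type I and type II chains in equal amounts, so that an epithelial cell makes a partner of each type. Simple epithelia and the early embryo use Krt8 with Krt18 and Krt19, the basal layer of skin uses Krt5 with Krt14, and its upper layers Krt1 with Krt10. Hair and its inner root sheath have sets of their own. Fibroblasts build their filaments chiefly from vimentin.

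In mm10 coordinates, 25 type I members lie on chromosome 11 between 99232761 and 100269871, and 21 type II members lie with Krt18 on chromosome 15 between 101347444 and 102032027. The GENCODE M21 annotation held 47 of the 48 symbols, and it calls Krt74 a transcribed unitary pseudogene. Sorted by known site of expression, 6 members belong to simple epithelia, 4 to wounds and skin appendages, 13 to upper layers of stratified epithelia, 3 to the basal layer, 13 to hair and 8 to the inner root sheath, and Krt222 stands apart.

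Reads were few. All keratins together drew 419 to 1053 counts per library, from gene totals of 8916223 to 19011944, and 9376 counts in all. The 6 simple-epithelial members took 6823 of them. Only 13 members passed the filter on low counts and were tested: Krt7, Krt8, Krt9, Krt10, Krt13, Krt17, Krt18, Krt19, Krt20, Krt23, Krt42, Krt80 and Krt222. A count of 3, taken here as the floor, stood for 0.158 to 0.336 CPM in a library. The share of reads outside annotated genes also differed between groups, at 8.86 to 9.42% in MEF, 38.1 to 45.2% at Stage1, 47.4 to 53.4% at Stage2 and 35.0 to 44.3% in iPSC. Its part in the low keratin values was not tested. In bulk RNA, fewer cells of a type and less RNA per cell cannot be told apart.

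The leading keratins differed between MEF, Stage1 and the later groups, while group means of the summed level lay between 54.6 and 67.8 CPM. Summed over the 48 members, the level was 54.6 ± 2.42 CPM in MEF, 55.5 ± 16.2 at Stage1, 64.5 ± 10.5 at Stage2 and 67.8 ± 7.20 in iPSC (mean ± SD, n = 3 libraries, scaled by TMM, the trimmed mean of M values). The ranges of the 4 groups overlapped except that the iPSC libraries, at 59.7 to 73.6 CPM, all lay above the MEF libraries, at 52.5 to 57.2 CPM. Over the 13 tested members alone these 2 groups overlapped too, at 55.1 to 64.4 CPM in iPSC and 52.5 to 56.7 CPM in MEF. Per kilobase of transcript, the leading genes were Krt19 (17.3 CPM), Krt20 (6.50) and Krt18 (4.83) in MEF, and Krt8 (14.5), Krt18 (7.11) and Krt23 (2.53) at Stage1. At Stage2 they were Krt18 (14.5), Krt42 (5.99) and Krt8 (3.99), and in iPSC Krt18 (9.13), Krt42 (6.90) and Krt8 (6.47). The 3 leading genes of a library took 85.7% ± 5.31 of keratin counts in MEF, 75.4% ± 9.42 at Stage1, 59.1% ± 4.04 at Stage2 and 55.0% ± 6.44 in iPSC. The shares of all Stage2 and iPSC libraries lay below those of all MEF and Stage1 libraries.

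**Figure D1:**
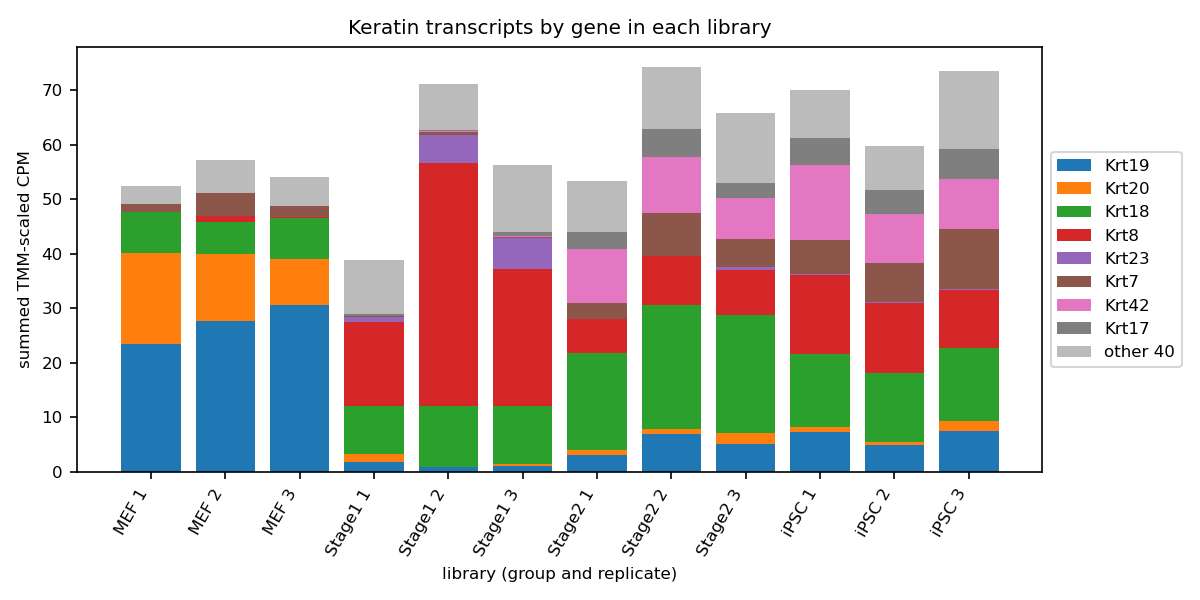
Stacked bars of summed TMM-scaled CPM of keratin genes in each of the 12 libraries, split by gene; reads are not corrected for transcript length. Bars of the MEF libraries are mostly Krt19 and Krt20, Krt8 takes 39.6 to 62.6% of keratin counts in the Stage1 libraries, and Krt42, Krt17 and Krt7 are visible together only in the Stage2 and iPSC bars.

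Among the simple-epithelial genes, Krt8 (type II) had the largest gain in CPM at Stage1 over MEF. Krt8 had 0, 1.00 and 0.121 CPM in the 3 MEF libraries, 15.4, 44.6 and 25.2 at Stage1, 6.25, 8.96 and 8.21 at Stage2, and 14.6, 12.9 and 10.6 in iPSC. The Stage1 libraries did not overlap any other group, and the second of them was the highest of all. Krt8 averaged 28.4 ± 14.8 CPM at Stage1 and 0.375 ± 0.548 CPM in MEF, a log2 fold change of 6.03 ± 0.567 (SE; edgeR adjusted p = 3.34e-08). Without the second MEF library, which held 15 of the 17 MEF counts, the log2 fold change was 8.28. Krt8 passed the filter on low counts through the later groups, which largely fixed its direction against MEF. At Stage2 Krt8 was lower than at Stage1, with a log2 fold change of −1.85 ± 0.405 (edgeR adjusted p = 0.00171). In iPSC it was above MEF by 4.87 ± 0.571 on the log2 scale (edgeR adjusted p = 5.63e-07; 7.11 without the second MEF library). The iPSC libraries all lay above the Stage2 libraries, yet the difference of 0.69 on the log2 scale did not pass (edgeR adjusted p = 0.254, 95% interval −0.10 to 1.48). Against Stage1, iPSC were lower by a log2 fold change of −1.16 ± 0.393 (edgeR adjusted p = 0.0272). That call was lost without the second Stage1 library (−0.68), and without the first, the second or the third iPSC library (−1.26, −1.17 and −1.04).

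Krt18, the type I partner of Krt8, was present from the start. Its level was 7.39, 5.88 and 7.54 CPM in MEF, 8.78, 11.2 and 10.7 at Stage1, 17.8, 22.9 and 21.7 at Stage2, and 13.4, 12.5 and 13.4 in iPSC. The 4 groups did not overlap, and Stage2 stood highest. Stage1 was above MEF by 0.56 ± 0.205 on the log2 scale (edgeR adjusted p = 0.0188), a call lost without the second MEF library (0.44), the second Stage1 library (0.50) or the third (0.53). Stage2 was above Stage1 by 1.03 ± 0.198 (edgeR adjusted p = 5.56e-04). In iPSC Krt18 was lower than at Stage2, with a log2 fold change of −0.67 ± 0.195 (edgeR adjusted p = 0.0266), and higher than in MEF by 0.92 ± 0.204 (edgeR adjusted p = 4.79e-04). The iPSC against Stage2 call was lost without any 1 of the 3 iPSC libraries (−0.65, −0.63 and −0.68) or without the second or the third Stage2 library (−0.57 and −0.61), with little change in size. Against Stage1, iPSC differed by 0.36 on the log2 scale, which did not pass (edgeR adjusted p = 0.162).

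The balance of this pair can be read per kilobase of transcript. Krt8 per kilobase over Krt18 per kilobase was 0, 0.125 and 0.0117 in the MEF libraries, 1.29, 2.92 and 1.73 at Stage1, 0.258, 0.288 and 0.277 at Stage2, and 0.798, 0.754 and 0.576 in iPSC. Krt8 exceeded Krt18 only in the 3 Stage1 libraries. The same turn showed in the whole family: type I genes held 95.2% ± 2.00 of the summed keratin level per kilobase in MEF, 48.9% ± 8.98 at Stage1, 82.5% ± 1.39 at Stage2 and 73.5% ± 1.76 in iPSC. No library of a group overlapped another group in this share. Krt8 accounts for most of the type II level at Stage1, with 14.5 ± 7.58 of 16.2 ± 7.22 CPM per kilobase. Both Krt8 and Krt18 are known to have processed pseudogenes, and how the counting treated reads shared with them is not given in the sources used here.

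The genes lie 23697 bases apart in opposite orientation, and their upstream sequences differ. The 250 bases before the RefSeq start are shown for this pair because its partners were at unequal levels; sequences are from RefSeq, build GRCm38.p6, 5′ to 3′ on the gene's strand. Krt8 is chr15:102004343-102004592 on the minus strand, and Krt18 is chr15:102027966-102028215 on the plus strand. Capitals mark a match to any of 5 motifs searched on both strands: the GC box GGGCGG, the TATA box TATAAA, the AP-1 letters TGANTCA, the octamer ATGCAAAT and the Klf letters GGGNGTG.
Krt8: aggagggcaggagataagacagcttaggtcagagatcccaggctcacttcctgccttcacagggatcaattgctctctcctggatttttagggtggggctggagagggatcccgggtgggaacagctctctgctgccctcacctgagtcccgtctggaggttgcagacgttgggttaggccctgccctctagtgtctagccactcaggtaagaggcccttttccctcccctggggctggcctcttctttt
Krt18: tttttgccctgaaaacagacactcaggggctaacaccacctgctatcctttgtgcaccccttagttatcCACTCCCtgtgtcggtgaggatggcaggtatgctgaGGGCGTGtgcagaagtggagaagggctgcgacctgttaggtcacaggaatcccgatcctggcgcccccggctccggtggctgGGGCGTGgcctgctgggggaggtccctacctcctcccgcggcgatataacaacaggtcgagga
Krt18 held 3 Klf matches, at 175, 139 and 57 bases before the start, and Krt8 held none of the 5 motifs. Among all 32851 promoters of this length, 26.1% held the Klf letters, 32.7% the GC box, 12.4% the TATA box, 6.75% the AP-1 letters and 1.60% the octamer. Of the 34 keratins with an entry, 16 held a TATA box, 10 the Klf letters, 2 the GC box, 1 the AP-1 letters and 0 the octamer. Such matches describe letters and not bound sites.

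Krt19 and Krt20, 2 further type I genes of simple epithelia, were highest in the fibroblast libraries. Krt19 stood at 23.4, 27.6 and 30.7 CPM in MEF, 1.87, 0.895 and 1.01 at Stage1, 3.13, 6.98 and 5.04 at Stage2, and 7.31, 5.0 and 7.48 in iPSC. MEF lay above every other library, Stage1 below every other, and Stage2 and iPSC overlapped. Stage1 was lower than MEF by a log2 fold change of −4.40 ± 0.343 (edgeR adjusted p = 1.78e-09). From there Krt19 was partly regained, with Stage2 above Stage1 by 1.98 ± 0.348 (edgeR adjusted p = 2.50e-04) and iPSC above Stage1 by 2.35 ± 0.345 (edgeR adjusted p = 4.18e-05). It remained lower in iPSC than in MEF, at −2.05 ± 0.290 (edgeR adjusted p = 4.20e-06).

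Krt20, known from gut and bladder lining, had 16.8, 12.4 and 8.44 CPM in MEF, 1.38, 0 and 0.421 at Stage1, 0.879, 0.846 and 2.07 at Stage2, and 0.840, 0.556 and 1.87 in iPSC. All MEF libraries were above all others, and the other 3 groups overlapped. Stage1 was lower than MEF by −4.26 ± 0.655 on the log2 scale (edgeR adjusted p = 1.28e-05), or −5.79 without the first Stage1 library, which held 20 of the 25 Stage1 counts. No gain passed at Stage2, where the difference from Stage1 was 1.00 ± 0.705 (edgeR adjusted p = 0.273), although it passed at 2.52 without that library. In iPSC Krt20 stayed below MEF by −3.53 ± 0.618 (edgeR adjusted p = 5.29e-05; −4.14 without the third iPSC library). Krt19 in Stage1, Stage2 and iPSC stood at 4.62%, 18.5% and 24.2% of its MEF level, Krt20 at 4.80%, 10.1% and 8.69%, and the summed fibroblast list at 1.51%, 4.37% and 2.02%. Vimentin stood at 1.54%, 3.76% and 3.42% of MEF in the same groups. The part of remaining fibroblast RNA in the later Krt19 and Krt20 levels was not tested.

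Krt7, the type II keratin of glandular and ductal epithelia, was low at Stage1 and highest in iPSC. Its level was 1.63, 4.35 and 1.99 CPM in MEF, 0.0691, 0.537 and 0.0842 at Stage1, 2.93, 7.90 and 5.17 at Stage2, and 6.22, 7.01 and 11.1 in iPSC. Stage1 lay below every other library, MEF overlapped Stage2, and iPSC lay above MEF but overlapped Stage2. The log2 fold change was −3.59 ± 0.666 for Stage1 against MEF (edgeR adjusted p = 8.88e-05), 4.58 ± 0.642 for Stage2 over Stage1 (edgeR adjusted p = 2.94e-05), and 1.57 ± 0.461 for iPSC over MEF (edgeR adjusted p = 0.00463). For iPSC against Stage1 it was 5.16 ± 0.635 (edgeR adjusted p = 6.42e-06). The second Stage1 library held 6 of the group's 8 counts, and without it the values were −4.98 for Stage1 against MEF, 5.97 for the Stage2 gain over Stage1 and 6.56 for the iPSC gain over Stage1.

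Krt23, a type I gene of simple epithelia, was highest at Stage1. No MEF library had a read, Stage1 had 1.04, 5.19 and 5.64 CPM, Stage2 had 0, 0 and 0.517, and iPSC had 0.168, 0.347 and 0.170. All 3 Stage1 libraries lay above all others, with the first of them well under the rest of its group. Krt23 passed the filter on low counts through Stage1 alone. Stage1 held 140 counts against 0 in MEF, at least 49.2-fold higher with the MEF group set at the floor of 3 counts (edgeR adjusted p = 4.46e-05). Here and below, such bounds take the counts of the higher group as exact. Stage2 was lower than Stage1 by −4.28 ± 0.903 on the log2 scale (edgeR adjusted p = 0.00152), or −8.65 without the third Stage2 library, which alone had reads in its group. iPSC were lower than Stage1 by −4.02 ± 0.887 (edgeR adjusted p = 0.00207). In iPSC Krt23 had 9 counts against 0 in MEF, which is 3.12-fold above the MEF floor of 3 counts (edgeR adjusted p = 0.0431). That call was lost without the second or the third iPSC library or any 1 of the MEF libraries, with fitted log2 values of 4.20 and 4.83 and of 4.68, 4.61 and 4.62.

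**Figure D2:**
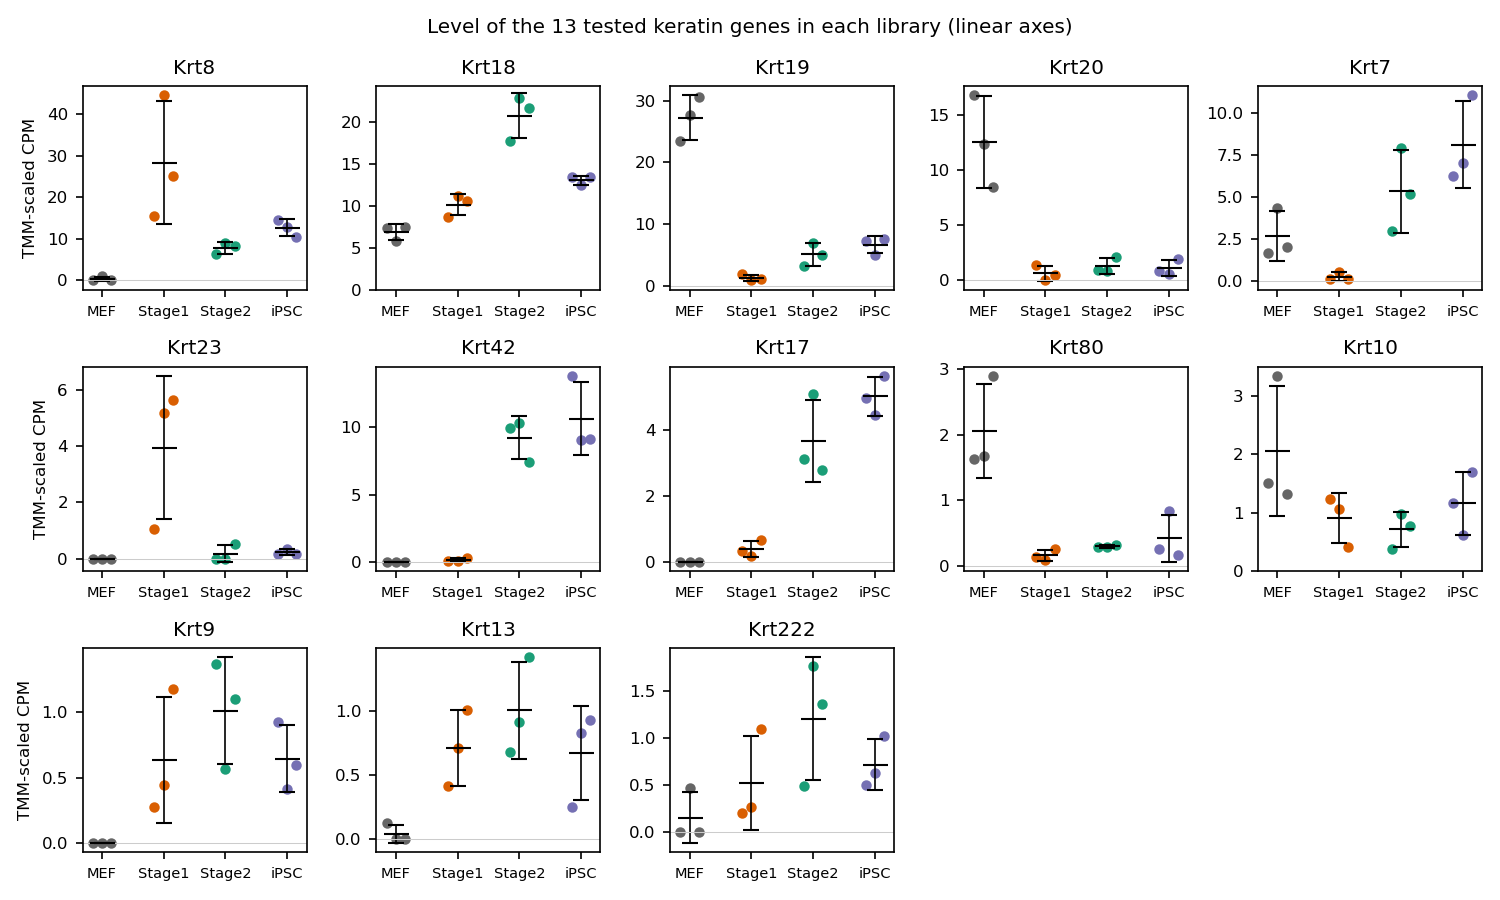
Level in TMM-scaled CPM (vertical axes, linear and of different height) of the 13 tested keratin genes in each library; dots are libraries, bars the mean and SD of 3 libraries. Krt8 and Krt23 peak at Stage1, Krt18 at Stage2, Krt19, Krt20 and Krt80 in MEF, and Krt42 and Krt17 are high at Stage2 and in iPSC.

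Upstream sequences are printed for Krt7 and Krt20, which differed from MEF in opposite directions in iPSC. Krt7 is chr15:101412153-101412402 on the plus strand, and Krt20 is chr11:99438154-99438403 on the minus strand, with capitals as above.
Krt7: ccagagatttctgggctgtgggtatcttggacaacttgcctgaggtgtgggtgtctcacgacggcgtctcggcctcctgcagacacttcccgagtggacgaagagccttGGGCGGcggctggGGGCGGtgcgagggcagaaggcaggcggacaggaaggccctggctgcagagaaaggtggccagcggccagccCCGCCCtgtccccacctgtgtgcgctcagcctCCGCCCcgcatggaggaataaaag
Krt20: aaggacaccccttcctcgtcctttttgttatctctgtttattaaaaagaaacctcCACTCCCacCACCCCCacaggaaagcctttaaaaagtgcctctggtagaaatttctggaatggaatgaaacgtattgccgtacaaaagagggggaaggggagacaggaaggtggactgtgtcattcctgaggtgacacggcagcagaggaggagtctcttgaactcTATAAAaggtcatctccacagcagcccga
Krt7 held 4 GC boxes, at 136, 123, 51 and 19 bases before the start, and 66.0% of its bases were G or C, against a median of 52.4% over all promoters. Krt20 held a TATA box 24 bases before the start and 2 Klf matches, at 189 and 180, with 48.0% G or C.

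Krt42 and Krt17, near 0 in MEF, were among the 5 keratins called higher at Stage2 than at Stage1, with Krt7, Krt18 and Krt19. Both are type I genes of skin appendages, and Krt17 is also induced in wounded epidermis. Both passed the filter on low counts through Stage2 and iPSC, so a rise over Stage1 was fixed in direction by it. Krt42 had 0 counts in MEF, 1, 1 and 4 counts at Stage1 (0.0691, 0.0895 and 0.337 CPM), 9.97, 10.3 and 7.44 CPM at Stage2, and 13.8, 9.03 and 9.10 CPM in iPSC. Stage2 and iPSC overlapped, and both lay above all MEF and Stage1 libraries. Stage2 averaged 9.23 ± 1.56 CPM and Stage1 0.165 ± 0.149 CPM, a log2 fold change of 5.76 ± 0.487 (edgeR adjusted p = 3.42e-07; 6.70 without the third Stage1 library). iPSC were above Stage1 by 5.96 ± 0.486 (edgeR adjusted p = 1.80e-07; 6.93 without that library) and at least 139-fold above MEF (edgeR adjusted p = 2.96e-09). The difference of iPSC from Stage2 was 0.20 on the log2 scale (edgeR adjusted p = 0.693, 95% interval −0.41 to 0.82). The 6 Stage1 counts put Krt42 2.11-fold above the MEF floor of 3 counts (edgeR adjusted p = 0.0118), a call lost without the third Stage1 library (fitted log2 value 3.19).

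Krt17 followed a like course at a lower level. It had no counts in MEF, 0.346, 0.179 and 0.673 CPM at Stage1, 3.13, 5.08 and 2.78 at Stage2, and 4.96, 4.44 and 5.61 in iPSC. The order MEF, Stage1, Stage2 held without overlap, while Stage2 and iPSC overlapped. Stage1 was at least 5.27-fold above MEF (edgeR adjusted p = 7.20e-04), Stage2 above Stage1 by 3.17 ± 0.498 on the log2 scale (edgeR adjusted p = 1.41e-04), and iPSC above Stage1 by 3.61 ± 0.496 (edgeR adjusted p = 3.72e-05). iPSC were at least 65.4-fold above MEF (edgeR adjusted p = 9.74e-08). Against Stage2, iPSC differed by 0.45 (edgeR adjusted p = 0.470, 95% interval −0.33 to 1.22).

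The genes are neighbours, 1852 bases apart on the minus strand of chromosome 11. On their other side lie Krt16, 7314 bases from Krt17, and Krt14, 38542 bases beyond, which is the type I keratin of basal epidermis. Krt16, a wound keratin, had 0 counts in MEF, 10 at Stage1, 17 at Stage2 and 21 in iPSC, summed over 3 libraries. Krt14 had 0, 15, 22 and 31 counts in the same order. Neither passed the filter. Krt14, Krt16, Krt17 and Krt42 are related in sequence, and how shared reads were counted is not given in the sources used here. The Krt42 sequence, shown as that of the member with the highest bound above MEF, is chr11:100269952-100270201 on the minus strand and held none of the 5 motifs.
Krt42: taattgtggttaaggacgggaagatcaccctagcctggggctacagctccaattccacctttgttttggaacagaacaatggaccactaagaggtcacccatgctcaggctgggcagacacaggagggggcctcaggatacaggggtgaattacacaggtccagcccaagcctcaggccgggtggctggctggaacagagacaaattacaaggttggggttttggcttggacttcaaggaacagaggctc

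**Figure D3:**
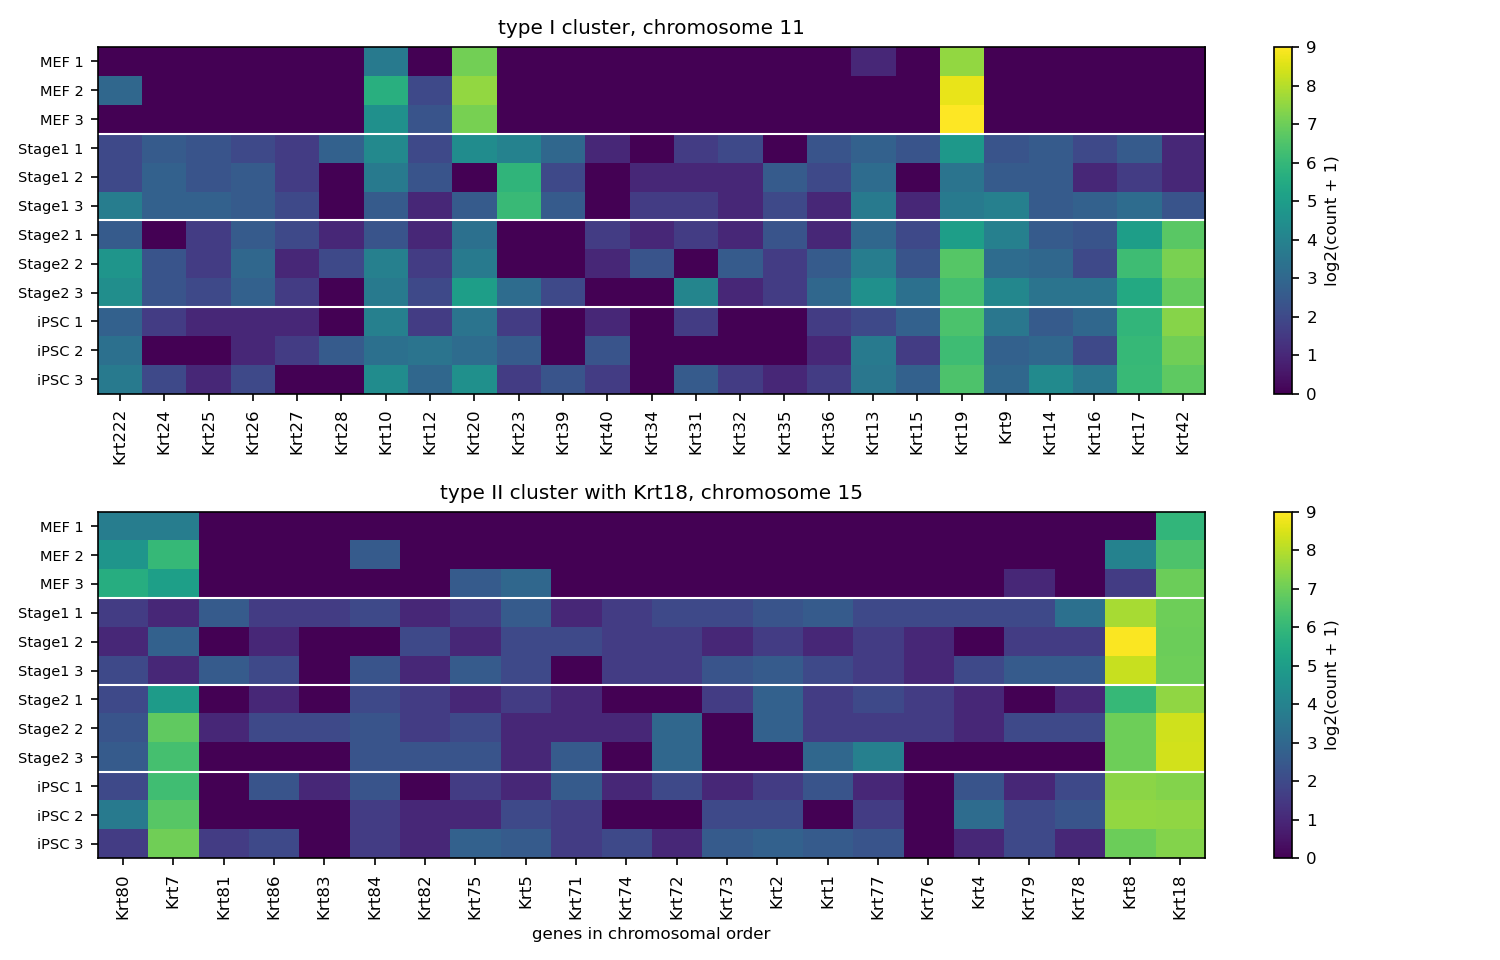
Counts, as log2(count + 1), of the 25 members on chromosome 11 (above) and the 22 on chromosome 15 (below) in chromosomal order; rows are libraries and white lines part the groups. Krt17 and Krt42 stand out at the right end of the chromosome 11 panel at Stage2 and in iPSC, Krt19 and Krt20 in MEF, and Krt8 and Krt18 at the right end of the chromosome 15 panel.

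Of the 4 tested members of upper stratified layers, Krt80 fell, no comparison of Krt10 passed, and Krt9 and Krt13 were called higher than in MEF from few reads. Krt80, a type II gene of upper layers, had 1.63, 1.67 and 2.89 CPM in MEF, 0.138, 0.0895 and 0.253 at Stage1, 0.293, 0.282 and 0.323 at Stage2, and 0.252, 0.833 and 0.170 in iPSC. MEF lay above all others, and Krt80 passed the filter on low counts through MEF alone. Stage1 was lower than MEF by −3.63 ± 0.676 on the log2 scale (edgeR adjusted p = 9.31e-05), and iPSC by −2.24 ± 0.584 (edgeR adjusted p = 0.00192; −3.24 without the second iPSC library, which held 12 of 17 counts). Krt10, the type I keratin of the spinous layer, had 1.50, 3.34 and 1.33 CPM in MEF, 1.24, 1.07 and 0.421 at Stage1, 0.391, 0.987 and 0.776 at Stage2, and 1.18, 0.625 and 1.70 in iPSC. No comparison of Krt10 passed, the nearest being Stage1 against MEF at −1.17 ± 0.561 (edgeR adjusted p = 0.0641). It passed without the first MEF library (−1.35) or the third (−1.42).

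Krt9 and Krt13, type I keratins of palm and sole skin and of the mouth and oesophagus, stayed near the floor. Krt9 had 0 counts in MEF, 4, 5 and 14 at Stage1, 14, 8 and 17 at Stage2, and 11, 6 and 7 in iPSC. It was at least 8.08-fold above MEF at Stage1 (edgeR adjusted p = 7.02e-04) and at least 8.31-fold above MEF in iPSC (edgeR adjusted p = 6.38e-04). The fitted log2 value at Stage1 was 6.04, and 5.26 without the third Stage1 library, which held 14 of the 23 counts. Krt13 had 1, 0 and 0 counts in MEF, 6, 8 and 12 at Stage1, 7, 13 and 22 at Stage2, and 3, 12 and 11 in iPSC. Stage1 over MEF gave a ratio of 27.4 (95% counting interval 4.50 to 1123; edgeR adjusted p = 0.00111), and iPSC over MEF a ratio of 27.0 (interval 4.44 to 1107; edgeR adjusted p = 0.00124). The fitted log2 value for Stage1 against MEF was 4.32, with 6.25 without the first MEF library and 3.71 without the third; for iPSC against MEF it was 4.26, with 6.18 and 3.65. The Stage1 level per kilobase was 4.48 times the mean of the olfactory receptor genes for Krt9 and 7.86 times for Krt13, and 1.95 times for Krt42. Krt222, a keratin-like type I gene, had 0, 7 and 0 counts in MEF, 3, 3 and 13 at Stage1, 5, 25 and 21 at Stage2, and 6, 9 and 12 in iPSC. No comparison of Krt222 passed in the main fit by group alone. The nearest was iPSC against MEF at 1.98 on the log2 scale (edgeR adjusted p = 0.0682), which passed by library totals (2.28) and with a block for replicate number (2.17). Without the second MEF library, which held all 7 MEF counts, both Stage1 and iPSC passed against MEF, at fitted log2 values of 5.74 and 6.18.

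**Figure D4:**
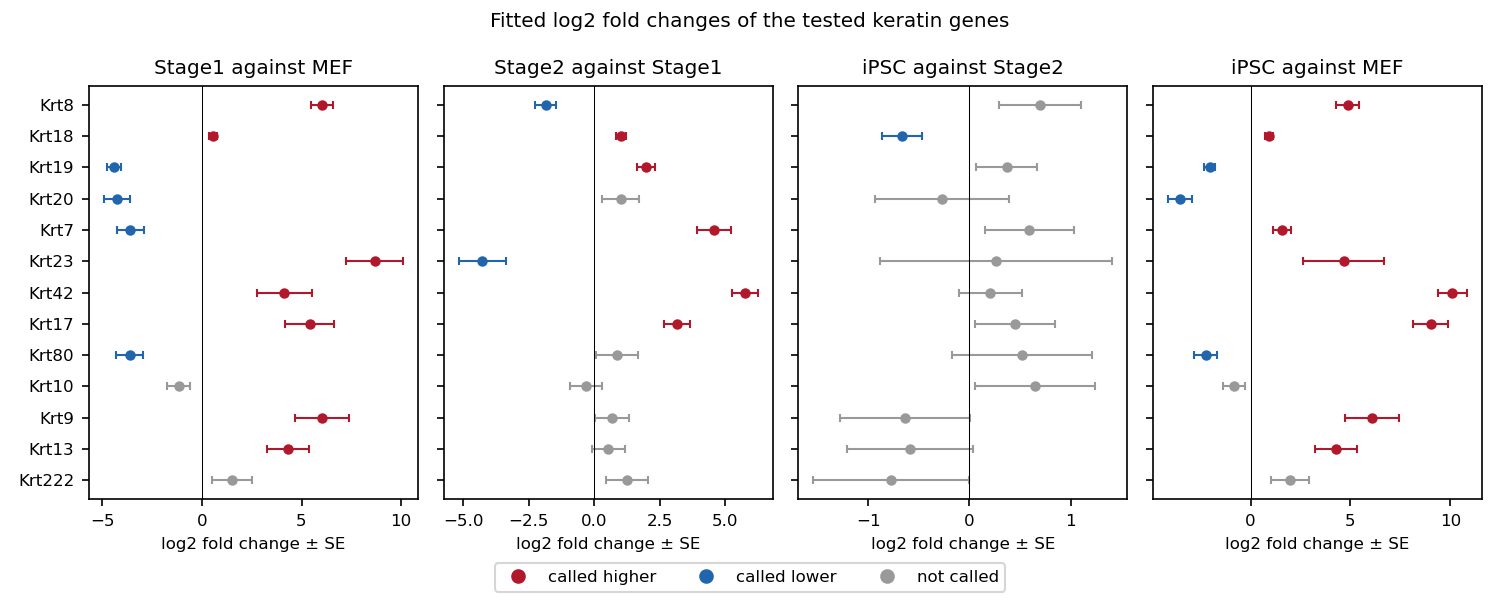
Fitted log2 fold change ± SE (horizontal axes, of different width) of the 13 tested keratins in 4 comparisons; red is called higher, blue called lower and grey not called at an adjusted p of 0.05. For Krt9, Krt17, Krt23 and Krt42 the MEF libraries had no counts, so values against MEF depend on the prior count of the fit; Krt18 is the sole call in iPSC against Stage2.

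Counted over the 13 tested members, 7 were higher and 4 lower at Stage1 than in MEF, beside 44.2% and 36.1% of all 14770 tested genes called higher and lower. At Stage2 against Stage1, 5 were higher and 2 lower, beside 20.6% and 19.8% of genes. In iPSC against Stage2, edgeR called 0 higher and 1 lower, beside 9.21% and 8.87%; 0 were higher at an unadjusted p of 0.05 too, and 0 with DESeq2. For iPSC against Stage1 the counts were 4 and 2, beside 21.3% and 18.1%, and for iPSC against MEF 8 and 3, beside 44.9% and 35.8%. The comparisons that use MEF share its libraries. Against MEF the share of all genes called was so high that these counts say little of keratins as a set. Of the 13, Krt9, Krt13, Krt17, Krt23 and Krt42 had at most 1 count in MEF and entered the test through their later levels, so their direction against MEF was fixed by the filter. Krt8 and Krt222, with 17 and 7 counts in MEF, also entered through later groups. Their direction against MEF was thus largely fixed as well. Krt80 passed the filter through MEF alone, and Krt23 through Stage1 alone. That Krt80 was lower outside MEF, and Krt23 lower outside Stage1, was thus fixed by the filter too. Krt17 and Krt42, low at Stage1 as well as in MEF, passed through Stage2 and iPSC. Their direction against Stage1 was thus also fixed, and both are among the 5 higher at Stage2 and the 4 higher in iPSC.

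The other 35 members were given by counts. They include Krt5, Krt14 and Krt15 of the basal layer, Krt1 and Krt2 of upper epidermis, all 13 hair keratins and all 8 inner root sheath keratins. Together they had 25 counts in MEF, 278 at Stage1, 281 at Stage2 and 250 in iPSC. Members with no count numbered 30 in MEF, 1 at Stage1, 0 at Stage2 and 3 in iPSC. The highest count in a library was 7 (Krt5) in MEF, 9 (Krt78) at Stage1, 16 (Krt31) at Stage2 and 19 (Krt14) in iPSC, and none reached 1 CPM as a group mean. Hair keratins summed to 0.111 ± 0.193 CPM in MEF, 1.99 ± 0.340 at Stage1, 2.10 ± 0.389 at Stage2 and 1.26 ± 0.746 in iPSC. Inner root sheath keratins summed to 0, 1.74 ± 0.101, 1.47 ± 0.0931 and 1.09 ± 0.187 CPM in the same order. Outside MEF, low counts were spread over nearly every member. Krt6a, Krt6b, Krt33a and Krt33b, whose symbols end in a letter, had at most 8 counts in any group and none in MEF.

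Genes of smell and pheromone receptors, which work in sensory neurons, were read in the same way; these families were chosen after values were seen. Per kilobase, the 34 untested keratins of known length stood at 0.00753 CPM in MEF, 0.107 at Stage1, 0.0996 at Stage2 and 0.0972 in iPSC. Olfactory receptor genes stood at 0.00502, 0.0549, 0.0653 and 0.0446 CPM in the same order. Vomeronasal receptor genes stood at 0.00172, 0.0407, 0.0432 and 0.0374 CPM, and keratin-associated protein genes of hair at 0.0147, 0.0381, 0.0331 and 0.0386 CPM. The means of all 4 families were lowest in MEF, where reads outside genes were also least frequent. With no filter on low counts, 16 of the 35 members were called higher at Stage1 than in MEF, as were 51 of 1076 olfactory receptors (4.74%), 52 of 284 vomeronasal receptors (18.3%) and 37.2% of all 22616 genes. Whether the low keratin reads are messenger RNA or share a source with the reads outside genes was not tested.

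**Figure D5:**
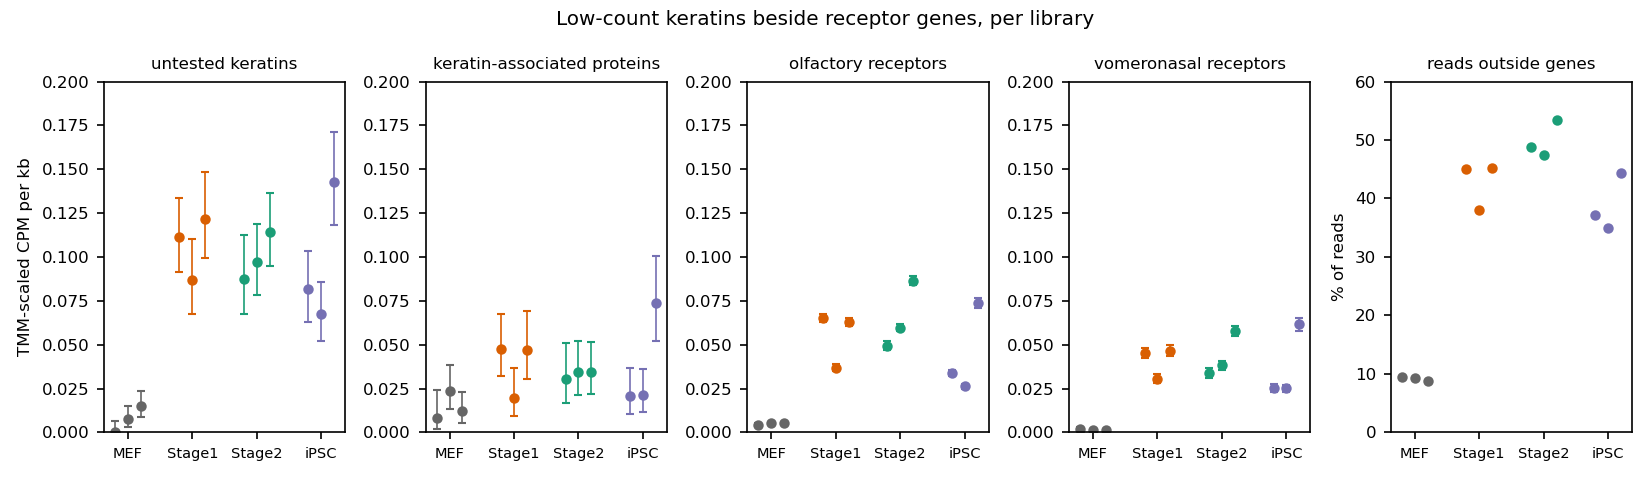
TMM-scaled CPM per kilobase of the untested keratins and of 3 other gene families (left 4 panels, same axis, bars are 95% Poisson intervals that cover counting error only) and the percent of reads outside genes (right panel), with a dot for each library. MEF libraries are lowest in each panel except the keratin-associated proteins, where some libraries are close, and the third iPSC library is the highest of its group in all 5.

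The proteins that anchor keratin filaments were read beside them. Among desmosome and plakin genes, whose products tie keratins to cell junctions, 15 of 19 were tested, and at Stage1 against MEF 11 were higher and 2 lower, beside 44.2% and 36.1% of all genes tested, with a median log2 fold change of 2.84 against 0.27 over all of them. Dst (dystonin), a long plakin with forms made in nerve and muscle as well as epithelium, had the highest level, with 225 ± 52.5 CPM in MEF, 1611 ± 279 at Stage1, 1206 ± 11.4 at Stage2 and 844 ± 91.3 in iPSC. Dsg2, a desmosomal cadherin, averaged 0.0446 ± 0.0772 CPM in MEF, 137 ± 41.4 at Stage1, 64.5 ± 21.5 at Stage2 and 25.5 ± 3.11 in iPSC. Dsp, a plakin that binds keratin directly, averaged 1.70 ± 1.47, 27.4 ± 2.65, 23.1 ± 0.934 and 11.96 ± 2.52 CPM in the same order. Jup (plakoglobin) and Plec (plectin) were the called members that fell, with 47.4 ± 2.02 CPM for Jup and 122 ± 14.3 CPM for Plec at Stage1, against 117 ± 21.8 and 300.1 ± 88.6 CPM in MEF. At Stage2 against Stage1 2 were higher and 2 lower (all genes 20.6% and 19.8%), in iPSC against Stage2 2 and 5 (9.21% and 8.87%), in iPSC against Stage1 2 and 7 (21.3% and 18.1%), and in iPSC against MEF 11 and 3 (44.9% and 35.8%). These shares of all genes are the ones to set beside the counts of the lists that follow. Dsg2 and Ppl, with 2 and 0 counts in MEF, passed the filter through later groups, so their direction against MEF was fixed by it. The same holds for members near 0 in MEF in the lists that follow. Ppl (periplakin) had 0 counts in MEF and averaged 5.33 ± 1.08 CPM at Stage1, 8.66 ± 0.958 at Stage2 and 10.7 ± 1.18 in iPSC.

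Hemidesmosome genes, which fix basal cells to their matrix, numbered 9, all tested, and 6 were higher and 2 lower at Stage1 than in MEF (median log2 fold change 0.79), beside 44.2% and 36.1% of all genes. Dst and Plec belong to this list too. Cd151, a membrane partner of the laminin-binding integrins, averaged 24.9 ± 1.90 CPM at Stage1 and 150.3 ± 16.7 CPM in MEF. The later counts were 2 higher and 0 lower at Stage2 against Stage1 (3 and 1 at an unadjusted p of 0.05), 1 and 2 in iPSC against Stage2, 3 and 1 in iPSC against Stage1, and 6 and 2 in iPSC against MEF. Of 11 tested genes linked to keratin filaments in other ways, 7 were higher and 2 lower at Stage1 than in MEF (median 1.24), beside the same shares. Csnk1a1, a widely expressed kinase, had the highest level of them, at 413 ± 10.3 CPM at Stage1 and 254 ± 7.74 CPM in MEF. At Stage2 against Stage1 1 was higher and 6 lower, in iPSC against Stage2 1 and 0 (2 and 0 unadjusted), in iPSC against Stage1 2 and 4, and in iPSC against MEF 7 and 2. Tchp, which codes for the keratin-binding protein trichoplein, averaged 26.1 ± 2.58 CPM at Stage1 and 3.21 ± 1.67 CPM in MEF (edgeR adjusted p = 2.86e-08). Krtdap, named for keratinocyte differentiation and not itself a filament protein, had 0 counts in MEF and averaged 4.00 ± 2.06 CPM at Stage1, 0.200 ± 0.194 at Stage2 and 0.216 ± 0.183 in iPSC. Its level at Stage2 was below that at Stage1 by −4.13 ± 0.753 on the log2 scale (edgeR adjusted p = 4.94e-04). Krtdap passed the filter through Stage1 alone, so this direction was fixed by it.

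Of 17 other intermediate filament genes tested, 7 were higher and 6 lower at Stage1 than in MEF (median log2 fold change 0.39), shares near the 44.2% and 36.1% of all genes. Vim, the fibroblast filament, averaged 4750 ± 1520 CPM in MEF, 72.9 ± 15.2 at Stage1, 179 ± 8.84 at Stage2 and 162 ± 13.8 in iPSC. Lmna, a nuclear lamin of differentiated cells, averaged 491 ± 219, 38.3 ± 8.43, 30.5 ± 4.76 and 32.0 ± 8.42 CPM in the same order. Lmnb1, a lamin found in nearly all cells, averaged 21.5 ± 9.21, 416 ± 34.9, 394 ± 69.9 and 307 ± 28.1 CPM. The 2 lamins thus differed in direction at Stage1. Nes (nestin) averaged 228 ± 64.6, 55.1 ± 0.198, 45.3 ± 5.37 and 35.5 ± 2.67 CPM. Neurofilament genes were also called: Nefl averaged 109 ± 9.26 CPM at Stage1 and 0.0418 ± 0.0723 CPM in MEF, and Nefh 69.6 ± 15.5 CPM in iPSC and 24.0 ± 2.26 CPM at Stage2 (edgeR adjusted p = 1.17e-04). Later comparisons gave 5 higher and 2 lower at Stage2 against Stage1, 3 and 1 in iPSC against Stage2, 6 and 3 in iPSC against Stage1, and 8 and 6 in iPSC against MEF.

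Of 15 tested transcription factors of epithelial genes, 11 were higher and 1 lower at Stage1 than in MEF (median log2 fold change 3.14), beside 44.2% and 36.1% of all genes. Klf4, also a reprogramming factor, had the highest level, with 17.9 ± 10.02 CPM in MEF, 162 ± 7.86 at Stage1, 168 ± 27.7 at Stage2 and 113 ± 20.6 in iPSC. Tfap2c had 0 counts in MEF and averaged 119 ± 8.81 CPM at Stage1, 54.5 ± 11.96 at Stage2 and 30.4 ± 3.75 in iPSC. Grhl3 also had 0 counts in MEF and averaged 39.4 ± 4.71, 29.9 ± 5.84 and 27.4 ± 4.31 CPM later. Grhl1, Grhl2, Ovol2, Elf3 and Esrp1 likewise had 3 or fewer counts in MEF. All of these, with Tfap2c and Grhl3, entered the test through later groups. Their calls as higher than MEF were thus fixed in direction by the filter, and the excess over all genes rests partly on them. Elf3 and Klf5 had their highest means at Stage2, at 70.3 ± 10.2 and 112 ± 53.5 CPM, against 24.2 ± 7.23 and 16.4 ± 6.83 CPM at Stage1. Trp63, the factor that defines stratified epithelium, did not pass the filter, with 4 counts in MEF, 21 at Stage1, 40 at Stage2 and 11 in iPSC. For the list, beside the shares of all genes given above, 4 were higher and 1 lower at Stage2 against Stage1, 0 and 5 in iPSC against Stage2 (0 and 7 unadjusted), 4 and 5 in iPSC against Stage1, and 11 and 1 in iPSC against MEF.

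Markers of cell types that use keratins were summed without keratins. The 15 keratinocyte markers in the table summed to 153 to 158 CPM in MEF, 22.4 to 23.7 at Stage1, 48.3 to 51.8 at Stage2 and 40.9 to 55.0 in iPSC. Of the 15, Lor, Dsg3, Calml3, Sprr1b and Serpinb5 had 0 counts in MEF, while Cdh3 had 3659, Gjb2 1763, Sprr1a 440 and Ivl 66 there. Of the 15 markers 7 were tested, with Dsc3, Col17a1 and Itgb4 higher and Cdh3, Gjb2 and Sprr1a lower at Stage1 than in MEF. The 13 trophoblast markers summed to 5.85 to 7.39 CPM in MEF, 121 to 141 at Stage1, 66.6 to 87.8 at Stage2 and 45.7 to 56.0 in iPSC; Tfap2c, which other early cells also express, supplied most of the Stage1 sum. Of the 13, 6 were tested, with Tfap2c, Eomes, Ascl2 and Gcm1 higher and Gata2 and Gata3 lower at Stage1 than in MEF. Those called higher had 0 to 3 counts in MEF, so their direction was fixed by the filter. Eomes had 240 counts at Stage1 and 3 in MEF, and Cdx2, not tested, 11 and 0. The 13 extraembryonic endoderm markers summed to 397 to 596, 194 to 226, 196 to 236 and 299 to 301 CPM in the same order. Lamb1 and Dab2 led the MEF sum, at 315 and 98.0 CPM. Of 9 tested endoderm markers, 2 were higher and 5 lower at Stage1 than in MEF, and 4 higher and 4 lower in iPSC than in MEF. Macrophage markers summed to 139 to 148, 27.4 to 37.3, 39.7 to 50.0 and 23.9 to 31.7 CPM in the same order. Of 8 tested, 0 were higher and 6 lower at Stage1 than in MEF, with a median log2 fold change of −4.81. Laptm5 and Cd68 were not called there and led the later sums, at 21.3 and 7.54 CPM at Stage1. Cd68 was higher at Stage2 than at Stage1 by 1.72 ± 0.297 on the log2 scale (edgeR adjusted p = 2.17e-04). The part of any cells of these types in the keratin values was not tested.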

How the data were processed

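The deposited files hold raw counts of reads per gene symbol for each of 12 libraries, made by the authors with HTSeq. Per the submitters' processing notes the build was mm10, and TopHat2 2.0.9, Bowtie2 2.2.6, SAMtools 0.1.19, HTSeq 0.5.4p3 and DESeq2 1.12.4 were used. Per the labels' protocols, RNA came from the miRNeasy Mini kit with standard Illumina libraries. Strand setting, annotation version and treatment of multiply mapped reads are not given in the sources used here. Summary lines for reads outside genes stayed out of library sizes and tests.

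All 12 libraries entered 1 robust quasi-likelihood fit in edgeR 4.0.16 (R 4.3.3, limma 3.58.1) with TMM scaling and filterByExpr, which kept 14770 genes. Calls needed an adjusted p under 0.05 (Benjamini-Hochberg, over all of them). The SE is the size of the log2 fold change divided by the root of F. Levels are TMM-scaled CPM, and per-kilobase values use the longest GENCODE M21 transcript, which need not be the one made (4094 bases for Krt7). Folds against a group without counts use 3 counts over that group and take the counts of the other group as exact. Intervals of counts and floors cover counting error only. The fit was also run on simulated counts in which few genes changed. That run does not cover the wide changes against MEF or groups without counts. Members, gene lists and tests were chosen with earlier results of these data known. Every keratin of at least 1 CPM in a group, or called, is given by library, and the rest by counts; list examples are among the called members with the highest level or close to keratin function, and Ppl, Tchp, Krtdap, Nefl, Nefh, Grhl3 and Trp63 were picked after their values were seen. Alternatives were RLE scaling, library totals, other filters, DESeq2 1.42.0, fits on 2 groups, a replicate block, the characteristic's naming and leaving out each library.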

Additional observations from a re-analysis of the deposited data

How the results depend on the processing

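Keratins called numbered 11 at Stage1 against MEF, 7 at Stage2 against Stage1, and in iPSC 1 against Stage2, 6 against Stage1 and 11 against MEF. DESeq2 tested more members and called 22 of 39 for Stage1 against MEF and 20 of 37 for iPSC against MEF, beside 69.8% and 71.8% of all genes. With no filter on low counts there were 27 and 26 of 48, beside 61.2% and 61.1%. Fits on only the 2 groups compared called 6 of 8 for Stage1 against MEF, beside 77.8% of all genes. There Krt9, Krt13, Krt17 and Krt42 were not tested and Krt18 lost its call (0.49). The same fits called 2 for iPSC against Stage2, Krt8 being the addition, while the share of all genes called was 36.1% against 18.1% in the main fit. Naming groups by the stage characteristic gave 7 for Stage1 against MEF and 1 for Stage2 against Stage1, beside 40.4% and 18.1% of all genes. In iPSC it gave 11 against Stage2 and 11 against Stage1, beside 80.8% and 81%. For iPSC against MEF it gave 11 too, beside 80.4%, but 4 higher and 7 lower in place of 8 and 3. Leaving out a library gave 0 to 1 for iPSC against Stage2. The summed level in MEF was 47.1 CPM by library totals against 54.6 CPM by TMM.

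Single genes were not read under the characteristic's naming. Of their 1220 values under the other alternatives, 1176 kept direction and call, 22 lost a call, 8 gained one and 14 turned sign, none of which was called in either fit. When libraries were left out, sign turns were seen for log2 fold changes in iPSC against Stage2 of Krt20 (−0.89 to 0.33), Krt23 (−0.29 to 4.64) and Krt80 (−0.49 to 0.87), and in iPSC against Stage1 of Krt9 (−0.34 to 0.83), Krt10 (−0.043 to 0.64) and Krt13 (−0.34 to 0.33; 0.047 by library totals, against −0.06). With the replicate block Krt222 in iPSC against MEF gained a call (2.17). Krt8 in iPSC against Stage1 also lost its call with DESeq2, with no filter and in the fit on 2 groups, at log2 fold changes of −1.15, −1.13 and −1.12. Library totals moved the median log2 fold change of all genes from 0.27 to 0.45 for Stage1 against MEF, and from 0.02 to 0.22 for Stage2 against Stage1, where genes called became 4026 higher and 1678 lower against 3048 and 2921; keratins called stayed 5 and 2. Libraries with the same number deviated together weakly at most (r from −0.07 to 0.20 over 18 pairs). Outside MEF every same-number r was positive, from 0.011 to 0.197, and different-number r ran from −0.139 to 0.074. Stage1 with iPSC for numbers 2 and 3, and Stage2 with iPSC for number 3, passed the pairing threshold of 0.1. Numbers were not taken as pairs in the main fit. With the replicate block the counts were 11, 7, 1, 6 and 12, beside 79.7%, 39.3%, 16.4%, 38.3% and 80.2% of all genes. The cause of each change was not tested. Depth limits members under 0.158 to 0.336 CPM, which 3 counts stand for.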
